A study of Mus musculus with 24 samples.

Results

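The oncofetal growth genes are 10 genes of fetal growth, several of which are silenced after birth and active again in cancers, and their RNA levels were followed in 24 bladder tumor allografts of the mouse. The 10 genes, Igf2, H19, Igf2bp1, Igf2bp2, Igf2bp3, Hmga2, Lin28b, Dlk1, Igf1r and Igf2r, were taken by name from the 53465 genes of the count table. Igf2bp3 was chosen by its level in the line BURP-21BaSq in these same counts, so its values in comparisons that include BURP-21BaSq are a description without a test.

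The tumors belonged to 8 BURP lines (BBN-induced Urothelium Roswell Park), with 3 tumors of each line. C57BL/6NTac mice of 8 weeks were given 0.1% of the bladder carcinogen BBN in drinking water for up to 36 weeks, and the bladder tumors that formed were passaged under the skin of untreated C57BL/6NTac hosts of the same sex. The basal squamous (Ba/Sq) lines of male donors were BURP-18BaSq, BURP-17BaSq and BURP-12BaSq, and those of female donors were BURP-25BaSq, BURP-24BaSq and BURP-21BaSq. The sarcomatoid line BURP-16SR and the neuroendocrine line BURP-19NE were male. The study took tumors at more than 1 passage, and names such as P4 and P5 give the passage for some tumors only. Every line descends from 1 donor mouse, so that a line and its donor, and for BURP-16SR and BURP-19NE the line and the subtype, cannot be told apart, and p-values measure the spread between tumors, within a line or, where Ba/Sq lines are pooled, within and between lines, not the spread between independent lines of a subtype. Whole tumors were sequenced, and RNA of host cells in the graft was counted with that of the tumor cells, so that fewer cells of a type and less RNA per cell cannot be told apart.

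Libraries held from 9295708 to 25370320 counts. Levels are given in CPM, the counts of a gene scaled to the library total with TMM factors, and 3 counts, the smallest level taken as detectable, stood at 0.106 to 0.412 CPM in 23 libraries. In C102-M30 of BURP-25BaSq a ribosomal RNA gene took 61.9% of the counts, and 3 counts there stood at 1.34 CPM. The 8 basal squamous markers summed to at least 8927 CPM in every Ba/Sq tumor and to at most 7.21 CPM in BURP-16SR and BURP-19NE. The 7 neuroendocrine markers summed to 251 to 361 CPM in BURP-19NE against at most 107 CPM elsewhere, although Neurod1 and Insm1 were at 0 in all 3 BURP-19NE tumors. Tumor C102-M1 is labelled BURP-25BaSq, but across 21383 genes its log2 levels were closest to the 3 BURP-21BaSq tumors (Pearson r of 0.965 to 0.974), and its correlations with the other BURP-25BaSq tumors, 0.904 and 0.881, ranked the 14th and the 15th of 23. It is kept as labelled, and results that rest on it are given with and without it.

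The 10 genes fall into a growth factor axis and an RNA-binding axis. Igf2 encodes the fetal insulin-like growth factor II, which signals through the receptor encoded by Igf1r and is removed by the clearance receptor encoded by Igf2r. H19, a non-coding RNA, and Igf2 are reciprocally imprinted neighbors, and Dlk1 is a paternally expressed growth regulator of another imprinted cluster. The IMP proteins encoded by Igf2bp1, Igf2bp2 and Igf2bp3 bind mRNAs, that of Igf2 among them, and affect their stability and translation. LIN28B blocks the maturation of the let-7 microRNAs, and Hmga2, which encodes a chromatin architectural protein of the embryo, is a classical let-7 target, as are Lin28b itself and the IMP genes.

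The let-7 sequences are shown because several members are known let-7 targets, so the matches counted here are a description of the genes and not independent of what they were known for. Of 11 let-7 family microRNAs in the RefSeq table (GRCm38.p6), 10 carry the seed of let-7a, which is in capitals (bases 2 to 8) in these 4 examples, written 5′ to 3′.
let-7a-5p: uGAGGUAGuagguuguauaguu
let-7c-5p: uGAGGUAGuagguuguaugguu
let-7g-5p: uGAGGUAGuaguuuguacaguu
miR-98-5p: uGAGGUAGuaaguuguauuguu

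The 7-base complement of this seed (CTACCTC, read on the sense strand) was searched in the 3′ UTR of the longest coding transcript of each gene in GENCODE M21 (GRCm38). It was found in 7 of the 9 members that have a 3′ UTR, against 8.85% of 20966 genes. The members' 3′ UTRs, from 1304 to 7267 bases, were longer than the median of all genes, 937 bases. Hmga2, Lin28b and Igf2bp1 held 4 matches each, Igf1r held 2, and Igf2bp2, Igf2bp3 and Igf2r held 1 each, whereas Igf2 and Dlk1 held none. The match nearest the stop codon of each gene is shown with its flanks, the match in capitals.
Hmga2 (chr10:120364224-120364245, minus strand): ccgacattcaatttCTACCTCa
Lin28b (chr10:45381022-45381043, minus strand): cccgggcgggaagtCTACCTCa
Igf2bp1 (chr11:95961778-95961799, minus strand): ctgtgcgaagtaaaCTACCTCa
Igf2bp2 (chr16:22059473-22059494, minus strand): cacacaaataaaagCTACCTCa
Igf2bp3 (chr6:49086787-49086808, minus strand): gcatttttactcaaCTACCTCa
Igf1r (chr7:68229111-68229132, plus strand): tttcaaacatttatCTACCTCa
Igf2r (chr17:12683036-12683057, minus strand): acctgctccgtgccCTACCTCa

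A match is a description of the letters and not a shown site, and the mature let-7 microRNAs were not measured in these libraries.

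The ligand gene Igf2 (chr7:142650766-142666816, minus strand) varied widely between lines. It stood at 488, 949 and 388 CPM in BURP-18BaSq and at 314, 466 and 401 CPM in BURP-19NE. BURP-21BaSq had 212, 225 and 437 CPM, and BURP-25BaSq had 181, 142 and 219 CPM, the last in C102-M1. These 4 lines were the high group, and no tumor of theirs lay under 142 CPM. BURP-24BaSq was intermediate at 57.2, 24.7 and 44.1 CPM, and in BURP-17BaSq the tumor C165-M30 stood at 153 CPM while the others stood at 9.58 and 9.22 CPM. BURP-12BaSq held 4.04, 5.61 and 4.4 CPM, and BURP-16SR held 0.678, 17.9 and 0.839 CPM. In the order of line means every neighboring pair overlapped except BURP-24BaSq and BURP-16SR.

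A gene model on the same strand, Gm49394 (chr7:142650769-142669942, protein coding), covers nearly all of Igf2, and the deposited estimates divide reads between them. In BURP-21BaSq Gm49394 stood at 226, 178 and 293 CPM, with 246 CPM in C102-M1, and in the other 20 tumors it did not exceed 1.24 CPM. The summed level of both genes was 438, 403 and 730.2 CPM in BURP-21BaSq, with 465 CPM in C102-M1, of which Gm49394 made up from 40.1% to 52.9%. The BURP-21BaSq tumors P4 and P4.2, below the BURP-19NE range of 314 to 466 CPM for Igf2 alone, lay inside it when both genes were summed. Reads of these gene models and of the antisense gene Igf2os, at 12.3 to 19.8 CPM in BURP-18BaSq, cannot be fully separated here, since strand use in the counting is not stated.

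**Figure D1:**
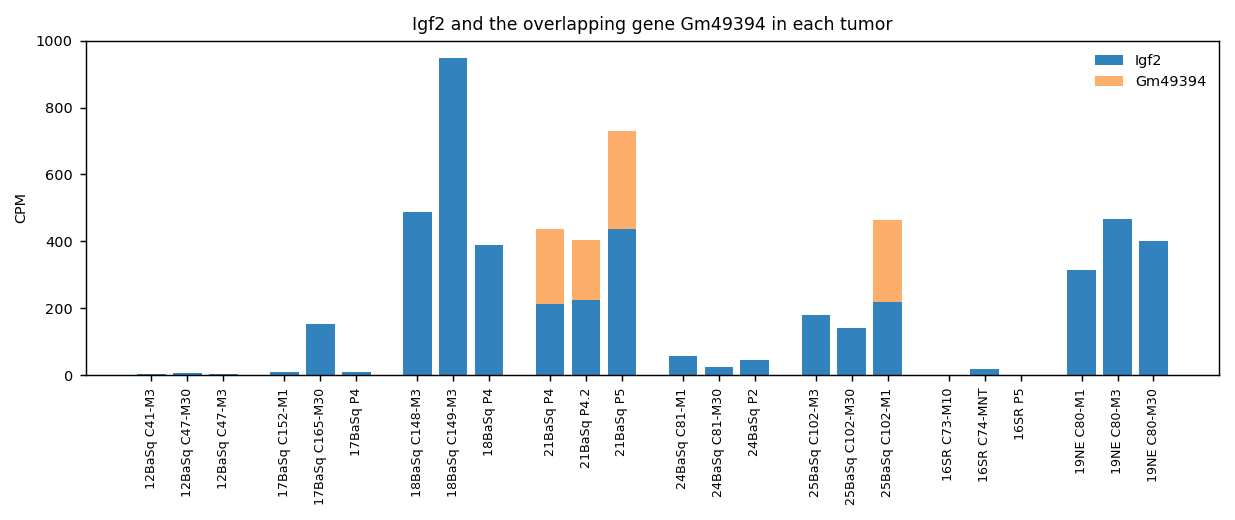
Stacked bars give Igf2 (blue) and the overlapping gene Gm49394 (orange) in CPM on a linear axis for each of the 24 tumors, grouped by line. Gm49394 is visible in the 3 BURP-21BaSq tumors and in C102-M1, where it adds 178 to 293 CPM, and in no other tumor does it exceed 1.24 CPM.

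H19 (chr7:142575529-142578143, minus strand), the non-coding partner of Igf2, was set apart in the same 4 tumors. BURP-21BaSq held 1151, 253 and 961 CPM of H19 and C102-M1 held 696 CPM. The next tumor, C74-MNT of BURP-16SR, held 115 CPM, while the others of its line held 2.12 and 1.47 CPM. Remaining levels were 0, 40.8 and 49.8 CPM in BURP-18BaSq, 10.4 to 20.9 CPM in BURP-17BaSq, 5.58 to 17.1 CPM in BURP-24BaSq, and 2.21 to 4.89 CPM in BURP-12BaSq. High Igf2 therefore occurred with high H19 (BURP-21BaSq) and with low H19, as in C148-M3 of BURP-18BaSq, where 488 CPM of Igf2 stood beside 0 counts of H19 (a level of up to 0.412 CPM). In the order of line means every neighboring pair overlapped except BURP-24BaSq and BURP-12BaSq. The BURP-25BaSq mean of H19, 239 ± 395 CPM (SD, n = 3), became 11 CPM without C102-M1.

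H19 is also abundant in skeletal muscle, and muscle markers varied between the tumors. In BURP-19NE the tumor C80-M1 held 31.8 CPM of H19 and 616 CPM of 10 summed skeletal muscle markers (Pax7 alone at 0), whereas C80-M3 and C80-M30 held 1.21 and 7.4 CPM of H19 and 3.37 and 8.67 CPM of the markers. In BURP-16SR the tumor C74-MNT, with the H19 of 115 CPM and the Igf2 of 17.9 CPM, held 169.6 CPM of these markers, with none of the 10 at 0, and 20827 CPM of 10 fibroblast markers. The other BURP-16SR tumors held 8.65 and 9.02 CPM of the muscle markers. The part of muscle and fibroblasts in the levels of H19 and Igf2 in those tumors was not tested. In BURP-21BaSq the muscle markers summed to 3.21, 50.7 and 5.2 CPM beside 1151, 253 and 961 CPM of H19, and their part there was not tested either.

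The signaling receptor gene Igf1r (chr7:67952827-68233668, plus strand) was the steadiest member, with an SD of 0.49 over 24 tumors on the log2 CPM scale and levels of 106 to 403 CPM. BURP-18BaSq was highest at 403, 301 and 359 CPM, next to BURP-17BaSq at 260.3, 305 and 259.7 CPM, and these ranges overlapped. No BURP-17BaSq or BURP-18BaSq tumor lay under 259.7 CPM, and no other tumor lay above 223 CPM.

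The clearance receptor gene Igf2r (chr17:12682406-12769664, minus strand) gave the clearest ordering of the receptors. BURP-19NE held 641, 612 and 308 CPM, and BURP-12BaSq followed at 228, 237 and 235 CPM. No tumor of another line reached 228 CPM, and the lowest held 69.1 CPM, so that both leading lines stood clear of the rest and of each other. Airn, the imprinted antisense RNA of the Igf2r locus, stood at 29.8, 24.2 and 10.8 CPM in BURP-19NE and was lowest, 2.01 CPM, in P4.2 of BURP-21BaSq. Airn overlaps Igf2r on the opposite strand, and reads of these genes may not have been separated. BURP-19NE combined high Igf2 with high Igf2r, whereas BURP-12BaSq combined low Igf2 (4.68 ± 0.819 CPM, SD, n = 3) with the second highest mean of Igf2r.

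Dlk1 (chr12:109452823-109463336, plus strand) was highest in BURP-16SR and, at a far lower level, next in BURP-18BaSq. BURP-16SR held 21.8, 5.11 and 39.8 CPM, and BURP-18BaSq held 1.1, 3.6 and 1.07 CPM. No tumor of another line exceeded 0.363 CPM, which is close to the level that 3 counts give. The lowest of the BURP-16SR values was again C74-MNT, the tumor with most fibroblast markers.

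Among the IMP genes, Igf2bp2 (chr16:22059009-22163299, minus strand) was well above the detection limit in every tumor. Igf2bp3 was detected in every tumor too, at low levels in most, and Igf2bp1 was not. Igf2bp2 ranged from 28.9 to 186 CPM, highest in BURP-17BaSq (145 ± 41.2 CPM, SD, n = 3) and lowest in BURP-19NE (42.6 ± 4.05 CPM, SD, n = 3), and each pair of neighboring lines overlapped. Per kilobase of exon, its median over the 24 tumors was 11 CPM, against 0.478 CPM for Igf2bp3 and 0.0175 CPM for Igf2bp1, so it was the most abundant of the 3 genes. In BURP-21BaSq the mean level per kilobase was 8.14 CPM for Igf2bp2 and 5.95 CPM for Igf2bp3.

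Igf2bp3 (chr6:49085223-49214957, minus strand), the gene selected on BURP-21BaSq, stood there at 44.6, 39.4 and 61.5 CPM. C102-M1 held 24.8 CPM, and the other 20 tumors held from 1.4 to 6.43 CPM, the highest of them in BURP-19NE. Neighbors in the order of line means overlapped except BURP-21BaSq with BURP-25BaSq and BURP-19NE with BURP-12BaSq. C102-M1 lay below all BURP-21BaSq tumors and above all others, while its line mates C102-M3 and C102-M30 held 1.78 and 5.82 CPM. The BURP-25BaSq mean of 10.8 ± 12.3 CPM (SD, n = 3) was 3.8 CPM without C102-M1. All 24 of the deposited Igf2bp3 estimates were fractional, which marks reads shared with other loci, and its level carries that uncertainty. The gene Malsu1, on the opposite strand at its end, varied only from 7.12 to 23.2 CPM.

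Igf2bp1 (chr11:95957163-96005940, minus strand) reached 32.9 CPM in P5 of BURP-21BaSq and was under 1 CPM in 20 of 24 tumors. The other BURP-21BaSq tumors held 3.21 and 0.275 CPM, so 1 of 3 tumors carried most of the level, and the mean of 12.1 ± 18.1 CPM (SD, n = 3) had an SD above itself. C102-M1 followed with 2.14 CPM, and no other tumor exceeded 1.37 CPM. All 3 BURP-16SR tumors had 0 counts, which allows levels of up to 0.21 to 0.254 CPM.

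Lin28b (chr10:45376620-45486395, minus strand) was high in some lines and low in others, and BURP-25BaSq as labelled was split. It stood at 25.2, 34.4 and 22.8 CPM in BURP-21BaSq, at 21.8, 27.9 and 24.9 CPM in BURP-24BaSq and at 14.9, 29.9 and 16.6 CPM in BURP-17BaSq. C102-M1 held 23.3 CPM, which lies inside all of these ranges. No tumor of BURP-12BaSq, BURP-16SR, BURP-18BaSq or BURP-19NE exceeded 1.98 CPM, and C102-M3 of BURP-25BaSq held 1.56 CPM. BURP-19NE, at 1.21 to 1.41 CPM, lay above the level of 3 counts in each tumor. C102-M30 had 0 counts of Lin28b, which at its depth allows up to 1.34 CPM. The paralog Lin28a did not exceed 0.184 CPM in any tumor. All neighboring lines overlapped in Lin28b. Without C102-M1 the BURP-25BaSq mean of Lin28b went from 8.3 to 0.779 CPM.

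Hmga2 (chr10:120361275-120476469, minus strand) was highest outside the Ba/Sq lines. BURP-16SR held 339, 349 and 451 CPM and BURP-19NE held 328, 273 and 269.8 CPM. BURP-18BaSq, at 363, 123 and 368 CPM, overlapped both, while the ranges of BURP-16SR and BURP-19NE lay just apart. The lowest line was BURP-12BaSq at 10.9, 15.9 and 6.59 CPM. In the lines between, tumors of 1 line were far apart, with 62.4, 96.5 and 17 CPM in BURP-24BaSq, 59.1, 212 and 18.3 CPM in BURP-25BaSq, and in BURP-21BaSq 13.1, 12.3 and 159 CPM. The high BURP-21BaSq tumor, P5, was also the tumor with the high Igf2bp1. By its label P5 is of a later passage than P4 and P4.2, and the part of passage was not tested.

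Antisense genes inside Hmga2, 9230105E05Rik and 1700006J14Rik, ranged from 0.928 to 55.3 CPM and from 1.04 to 53.3 CPM, both lowest in P4.2 of BURP-21BaSq and highest in C148-M3 of BURP-18BaSq. Reads on opposite strands of these loci may not have been separated, and 21 of 24 Hmga2 estimates were fractional. The highest lines of Hmga2 were not those of Lin28b. BURP-16SR, BURP-19NE and BURP-18BaSq had high Hmga2 with Lin28b at or under 1.98 CPM. BURP-24BaSq had Lin28b of 21.8 CPM or more with Hmga2 at or under 96.5 CPM. The genes were not opposed everywhere, since BURP-17BaSq held 73.8 to 201 CPM of Hmga2 with 14.9 to 29.9 CPM of Lin28b, and BURP-12BaSq was low in both. In BURP-21BaSq, high in Lin28b, P5 held 159 CPM of Hmga2 and P4 and P4.2 held 13.1 and 12.3 CPM.

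**Figure D2:**
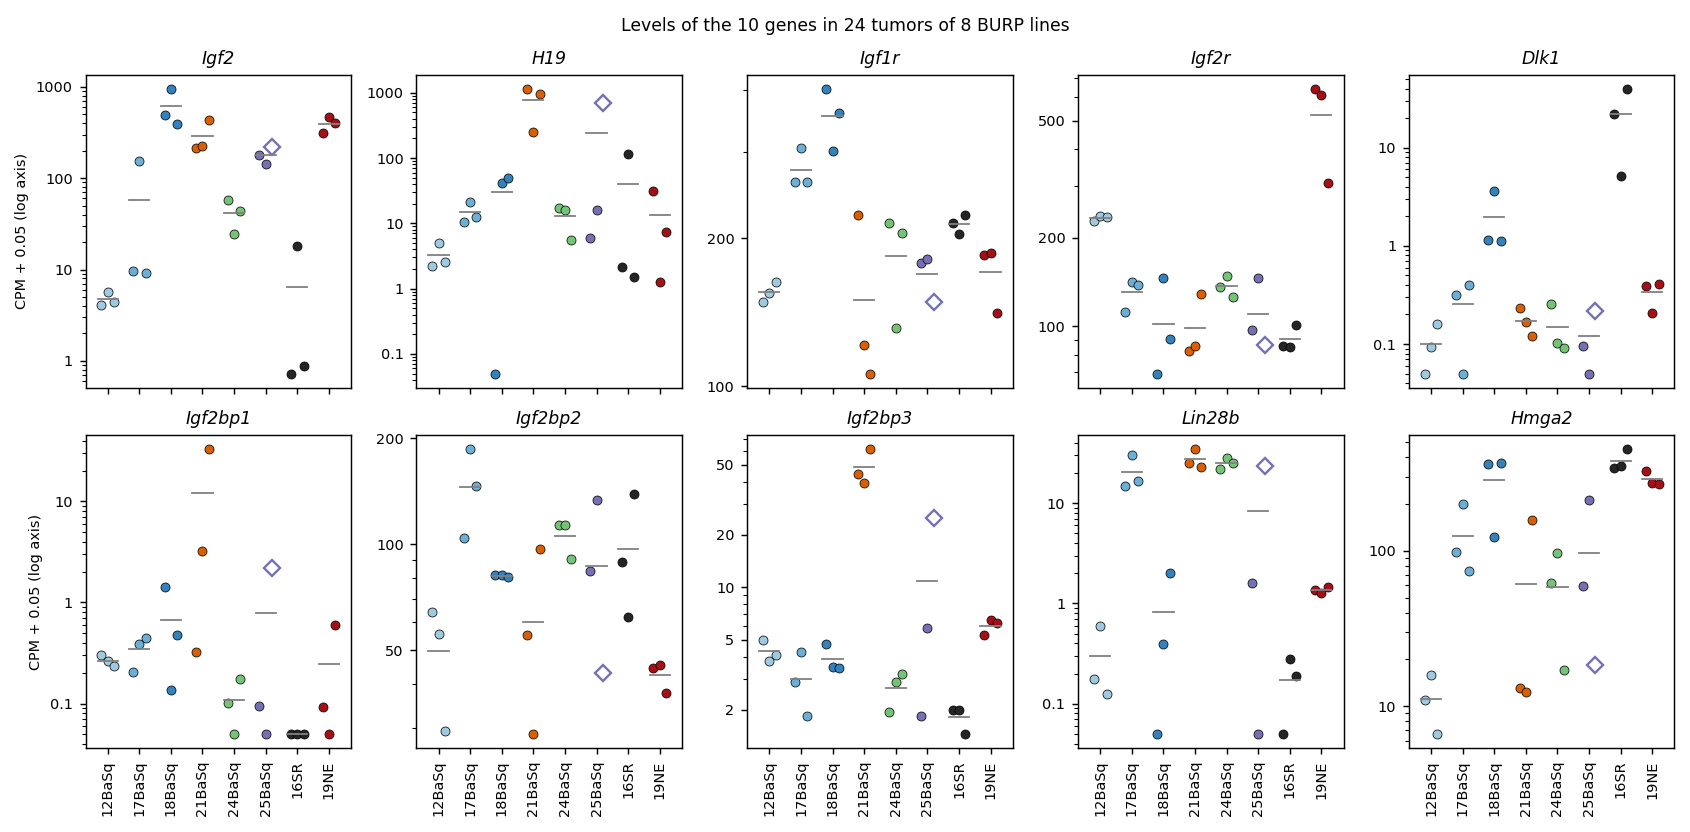
Each panel gives 1 gene in CPM plus 0.05 on a log axis, with 3 points for each of the 8 lines, a grey bar at the line mean and an open diamond for C102-M1, labelled BURP-25BaSq. Igf2bp3 is at 39.4 CPM or more only in BURP-21BaSq, Dlk1 is at 5.11 CPM or more only in BURP-16SR, and the diamond lies with the BURP-21BaSq points for H19 and Lin28b.

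The tumor C102-M1 lay within the BURP-21BaSq range in 9 of the 10 members, and below it in Igf2bp3. The share of all genes within that range was not counted. Dlk1 was at the floor, with 3 counts in C102-M1 and at most 3 counts in each BURP-21BaSq tumor. Its H19 of 696 CPM lay within the BURP-21BaSq range of 253 to 1151 CPM and far from the 5.97 and 16.1 CPM of its line mates. The same held for Lin28b, Igf2bp1 and Gm49394, whereas its Igf2 of 219 CPM, in the BURP-21BaSq range, was also close to the 181 and 142 CPM of its line mates. For Hmga2, C102-M1 at 18.3 CPM lay beside the lower BURP-21BaSq tumors and below its line mates at 59.1 and 212 CPM. The line mate at 59.1 CPM was also inside the BURP-21BaSq range of 12.3 to 159 CPM, so Hmga2 does not separate the lines. Igf2bp2 at 43 CPM, Igf2r at 86.1 CPM and Igf1r were within the BURP-21BaSq ranges as well, but so was at least 1 of its line mates in each of these genes, which therefore do not separate the lines. Igf2bp3 at 24.8 CPM was below the BURP-21BaSq range of 39.4 to 61.5 CPM and above the line mates at 1.78 and 5.82 CPM. How this library came by its levels was not tested.

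**Figure D3:**
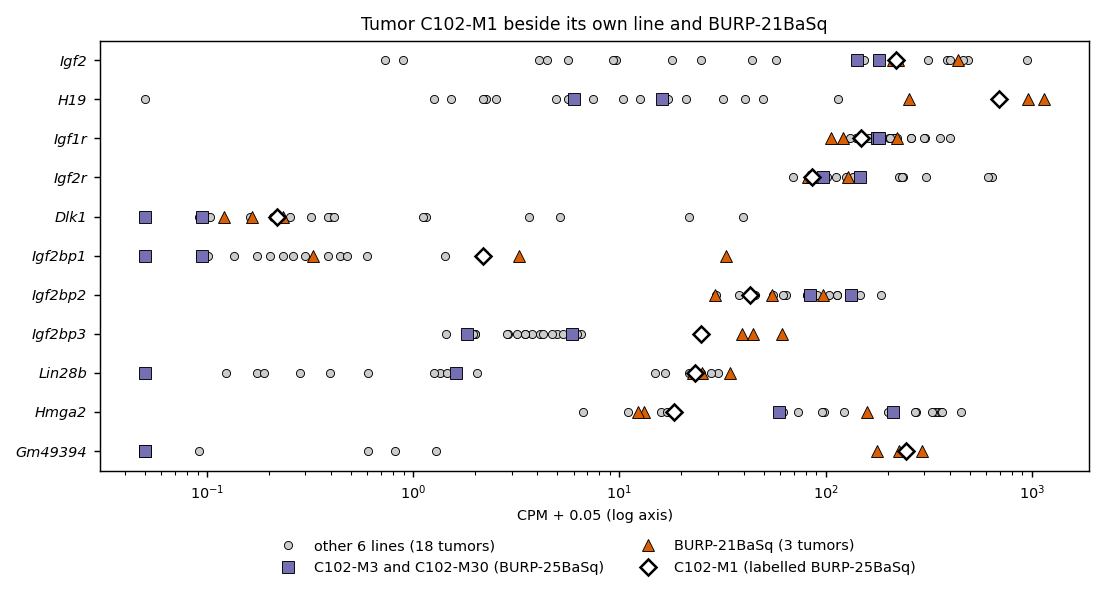
Points give CPM plus 0.05 on a log axis for each member and for Gm49394 in C102-M1 (open diamond), the other BURP-25BaSq tumors (purple squares), BURP-21BaSq (orange triangles) and 18 tumors of 6 other lines (grey). The diamond sits among the triangles for H19, Lin28b and Gm49394 and between the triangles and the grey points for Igf2bp3.

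Differences between lines were tested with edgeR across all genes. Over the 8 lines all 9 tested members passed at an adjusted p under 0.05, as did 76.7% of 21383 genes. The smallest adjusted p was 6.22e-08, for Dlk1, and the largest was 0.01, for Igf2bp2. In the comparisons of 2 groups a gene was called at an adjusted p under 0.05 with a log2 fold change above 1 in size. Comparisons against Ba/Sq tumors share those 18 tumors, and their results are not independent of each other. SEs of fold changes were taken from the fold change and its F statistic.

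BURP-19NE was compared with the 18 Ba/Sq tumors to ask how the neuroendocrine line differs from the basal squamous ones. Of 9 members 1 was called, against 24.3% of 20995 genes: Igf2r rose by 1.97 ± 0.27 (log2 fold change ± SE, edgeR, adjusted p = 1.15e-05), with 308 to 641 CPM in BURP-19NE and 69.1 to 237 CPM in the Ba/Sq tumors, ranges that did not overlap. The call of Igf2r held without any 1 tumor, with log2 fold changes from 1.75 to 2.2. Igf2, at 314 to 466 CPM, and Hmga2, at 269.8 to 328 CPM, lay inside the Ba/Sq ranges of 4.04 to 949 CPM and 6.59 to 368 CPM, and their fold changes of 1.02 ± 1.08 and 1.47 ± 0.85 did not pass (edgeR adjusted p = 0.493 and 0.189). Igf2bp2, lower by 1.03 ± 0.43 on the log2 scale, had an adjusted p of 0.0698 and was called without P4.2 of BURP-21BaSq (adjusted p = 0.0351) or without C47-M3 of BURP-12BaSq (0.0352). The median log2 fold change was -0.42 over the 9 members and -0.14 over all genes.

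In BURP-16SR, the sarcomatoid line, 2 of 9 members were called against the Ba/Sq tumors, where 19.2% of 21028 genes were. Dlk1 rose by 5.85 ± 0.88 (log2, edgeR adjusted p = 4.61e-05), the 3 tumors at 5.11 CPM or more and the Ba/Sq tumors at 3.6 CPM or less. Lin28b fell, with 5 counts in all in BURP-16SR against 4955 in 18 Ba/Sq tumors, a ratio of pooled levels of 113 with a 95% counting interval of 48.6 to 349.7 (edgeR adjusted p = 0.0359). Its groups overlapped, since Lin28b was also low in BURP-12BaSq and BURP-18BaSq. The call was lost when any 1 of the 3 BURP-16SR tumors was left out (edgeR adjusted p from 0.0967 to 0.133). Summed to 1 count per line, neither gene was called, with adjusted p of 0.0637 for Dlk1 and 0.296 for Lin28b.

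Igf2 was lower in BURP-16SR by -4.85 ± 1.84 on the log2 scale and missed the threshold (edgeR adjusted p = 0.0568). It was called when C74-MNT, the tumor with 17.9 CPM and with muscle markers, was left out (log2 fold change -7.95, adjusted p = 0.0375), when C152-M1 of BURP-17BaSq was (0.0462) and when any BURP-12BaSq tumor was (0.0461 to 0.0476). Hmga2, at 339 CPM or more in all BURP-16SR tumors, overlapped the Ba/Sq range through BURP-18BaSq, and its fold change of 1.9 ± 0.82 had an adjusted p of 0.0949.

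The comparison of BURP-16SR with BURP-19NE, 3 tumors against 3, holds no BURP-21BaSq tumor, and here Igf2bp3 was tested. Of 10 members 9 were tested and 6 were called, against 23.6% of 17556 genes. In BURP-19NE, Igf2, Igf2r, Igf2bp3 and Lin28b were higher, while in BURP-16SR Dlk1 and Igf2bp2 were. Igf2r differed most firmly, by -2.43 ± 0.29 (log2 fold change of BURP-16SR over BURP-19NE ± SE, edgeR adjusted p = 0.00223), with 85.2 to 101 CPM against 308 to 641 CPM. Dlk1 differed by 6.3 ± 0.86 (adjusted p = 0.00308) and Igf2bp3 by -1.66 ± 0.28 (adjusted p = 0.00641), the latter from 1.4 to 1.95 CPM against 5.3 to 6.43 CPM. The calls of these 3 genes held without any 1 of the 6 tumors.

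The other calls of that comparison were less firm. Igf2 differed by -5.81 ± 1.29 (edgeR adjusted p = 0.0158), which became 0.0512 without C80-M3. Lin28b had 5 counts in BURP-16SR and 85 in BURP-19NE, a ratio of 10.2 with a 95% counting interval of 4.22 to 32.3 (adjusted p = 0.0109), and missed the threshold narrowly without C80-M1 (0.0509) or C80-M30 (0.0504). Igf2bp2, at 62 to 139 CPM against 37.9 to 45.3 CPM, differed by 1.26 ± 0.27 (adjusted p = 0.0142) and was lost without any 1 of the BURP-19NE tumors (0.0557 to 0.0626) or without P5 of BURP-16SR (log2 fold change 0.9). Hmga2 was near the threshold at 0.47 ± 0.16 (adjusted p = 0.055), and Igf2bp1 was too low to test.

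**Figure D4:**
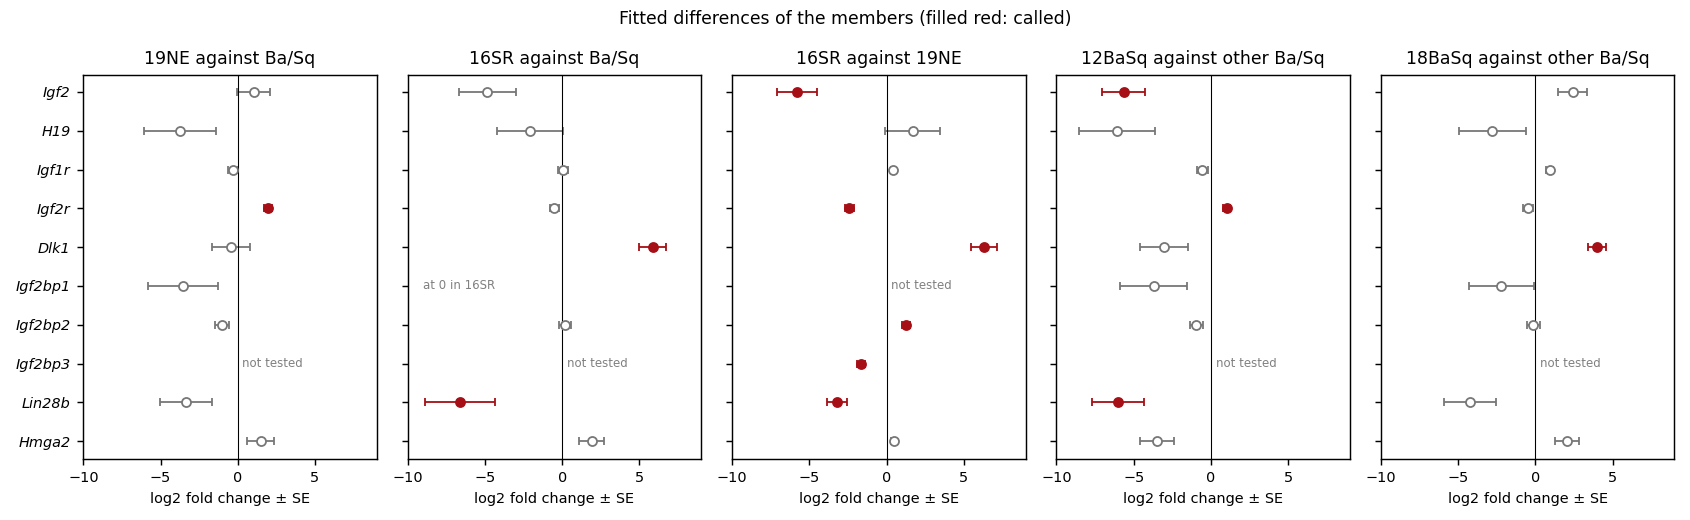
Points give the log2 fold change with its SE in 5 comparisons, filled red where called (edgeR adjusted p under 0.05 and size above 1) and open grey otherwise. Members not tested, and Igf2bp1 where BURP-16SR at 0 was set against Ba/Sq, have no point. Dlk1 is red in 3 panels and Igf2r in 3, and open points with SEs above 1, such as H19, mark fold changes known only imprecisely.

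Each Ba/Sq line was also set against the other 5, except BURP-21BaSq, which the choice of Igf2bp3 had used. BURP-12BaSq had 3 of 9 members called, against 4.59% of 20523 genes. Igf2 was lower by -5.66 ± 1.42 (log2, edgeR adjusted p = 0.0221), at 4.04 to 5.61 CPM against 9.22 to 949 CPM. Lin28b was lower, with 18 counts against 4937 in 15 tumors, a ratio of 76.9 with a 95% counting interval of 48.6 to 129.8 (adjusted p = 0.0371). Igf2r was higher by 1.01 ± 0.2 (adjusted p = 0.00533), at 228 to 237 CPM against a median of 126 CPM in the other 15 tumors.

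The BURP-12BaSq groups did not overlap for Igf2 or Igf2r. For Igf2 and Lin28b the call was lost without any 1 of the 3 BURP-12BaSq tumors (adjusted p from 0.112 to 0.135 and from 0.127 to 0.2). Igf2r stood at the fold threshold, and without C102-M1 its log2 fold change was 0.98. Hmga2, at 6.59 to 15.9 CPM against 12.3 to 368 CPM, had an adjusted p of 0.058 and passed without C102-M1 (log2 fold change -3.58, adjusted p = 0.0487).

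BURP-18BaSq had 1 of 9 members called, against 10.1% of 20523 genes. Dlk1 was higher by 3.99 ± 0.59 (log2, edgeR adjusted p = 0.000192), from 1.07 to 3.6 CPM against at most 0.345 CPM, on 70 counts in 3 tumors against 35 counts in 15. Its call held without any 1 BURP-18BaSq tumor and without C102-M1. Igf1r differed by 0.93 ± 0.24 (adjusted p = 0.0134), short of the fold threshold, and passed it at 1.03 without C149-M3. Igf2, the highest mean of all lines, overlapped the other Ba/Sq tumors through BURP-21BaSq, and its difference of 2.41 ± 0.95 had an adjusted p of 0.0888. With the Gm49394 counts added to Igf2, that difference was 1.78 (adjusted p = 0.285).

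No member was called in BURP-17BaSq, BURP-24BaSq or BURP-25BaSq against the other Ba/Sq lines, where 1.07%, 1.65% and 0.273% of 20523 genes were. Lin28b, high in BURP-17BaSq and BURP-24BaSq, overlapped BURP-21BaSq, and its differences of 0.72 ± 1.31 and 1.11 ± 1.26 had edgeR adjusted p of 0.842 and 0.685. BURP-25BaSq had no member called with or without C102-M1. BURP-21BaSq itself, by description, held the highest means of Igf2bp3, H19, Lin28b and Igf2bp1 among all lines, the lowest of Igf1r (149.9 ± 63.8 CPM, SD, n = 3), and a low Hmga2 in P4 and P4.2.

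Male and female Ba/Sq tumors were compared on counts summed per line, 3 lines against 3. None of 9 members was called, and 0% of 21658 genes were with edgeR, where 1388 genes had an unadjusted p under 0.05 and DESeq2 called 229. The paper, using DESeq2, reported genes higher in each sex, with Y-linked genes such as Ddx3y among the top ones of male lines. It does not describe summing the tumors of a line, so its unit of comparison may differ from the sums used here. The edgeR fit on sums called not even the Y-linked genes, so it cannot tell whether a member differs between the sexes. H19 had the largest difference, -4.25 ± 1.44 (log2 of male over female, edgeR adjusted p = 0.739), with 0 to 49.8 CPM in male tumors and 5.58 to 1151 CPM in female ones. DESeq2 called H19 on the same sums (adjusted p = 0.017), and so did edgeR with each tumor as a sample (adjusted p = 0.0359). Sex varies only between lines, and tumors of a line share a donor. Fits with each tumor as a sample therefore overstate the evidence on sex. The high female values were those of BURP-21BaSq and C102-M1. Without C102-M1 the difference was -3.78 (edgeR adjusted p = 0.966), DESeq2 on the sums gave no adjusted p for H19, edgeR with each tumor as a sample no longer called it (-4.24, adjusted p = 0.0594), and DESeq2 with each tumor as a sample still did (-4.23, adjusted p = 0.00399). Without BURP-21BaSq the difference on sums was -3.1 (edgeR adjusted p = 0.92). In BURP-24BaSq and the other BURP-25BaSq tumors H19 did not exceed 17.1 CPM, which is inside the male range. Dlk1 was too low to test.

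The rest of the insulin-like growth factor system was examined by a list of 19 ligands, receptors, binding proteins and substrates. In BURP-19NE 7 of 16 tested genes were called against Ba/Sq, where 24.3% of all genes were, 2 higher and 5 lower (list median -2.57, all genes -0.14 on the log2 scale). Irs1, a substrate of the activated receptor, rose to 179 to 255 CPM from a Ba/Sq median of 39.1 CPM, while Pappa, which encodes a protease that cleaves IGF binding proteins, fell to at most 0.409 CPM from a median of 27.2 CPM. In BURP-16SR 4 of 16 were called, beside 19.2% of all genes, 3 higher and 1 lower (list median -0.02, all genes -0.03), led in level by the binding protein gene Igfbp4 at 1437 to 2197 CPM against a median of 54.6 CPM. Igfbp4 was higher in BURP-18BaSq too, at 281 to 662 CPM. Dlk1 and Igfbp4 thus led in the same lines, and BURP-16SR against BURP-19NE had 9 of 12 genes of the list called, beside 23.6% of all genes.

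A list of 22 other imprinted genes had 7 of 21 tested genes called in BURP-19NE (2 higher, 5 lower) and 9 of 21 in BURP-16SR (6 higher, 3 lower), beside 24.3% and 19.2% of all genes. The list medians were -1.34 and 1.09 on the log2 scale, and those of all genes -0.14 and -0.03. Between BURP-16SR and BURP-19NE 10 of 18 were called, beside 23.6% of all genes, 8 of them higher in BURP-16SR. Meg3, the maternal non-coding partner of Dlk1, stood at 15.8 to 287 CPM in BURP-16SR and was called higher than in Ba/Sq (log2 fold change 2.46 ± 0.71, edgeR adjusted p = 0.0148), with ranges that overlapped. The 10 fibroblast markers, none at 0, summed to 629.9 to 20827 CPM in BURP-16SR and to 282 to 10365 CPM in the Ba/Sq tumors, and their part in the levels of Meg3 and Igfbp4 was not tested. Plagl1, which encodes a zinc finger regulator of imprinted genes, fell in both lines and rose in BURP-12BaSq by 2 ± 0.45 (adjusted p = 0.0129). Peg10, a retrotransposon-derived placental gene, stood at 405 to 815 CPM in BURP-19NE and at 28.4 to 62.2 CPM in BURP-16SR. It was called between these lines (log2 fold change of BURP-16SR over BURP-19NE -3.87 ± 0.41, edgeR adjusted p = 0.00159). In BURP-19NE against Ba/Sq it was not called, and BURP-25BaSq reached 546 CPM.

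Of 13 other oncofetal genes, 3 of 8 tested were called in BURP-19NE, all lower, and 3 of 8 in BURP-16SR, 2 higher and 1 lower, beside the same 24.3% and 19.2% of all genes. Mdk, which encodes the growth factor midkine, rose in BURP-16SR to 12.3 to 24.3 CPM from a median of 0.886 CPM. In a list of 16 genes of let-7 processing and its targets, 9 were tested and 1 was called in each line, Hmga1, a paralog of Hmga2, which rose by 1.09 ± 0.37 in BURP-19NE and by 1.8 ± 0.36 in BURP-16SR (log2, edgeR adjusted p = 0.0288 and 0.000955). Hmga1 also rose in BURP-18BaSq by 1.27 ± 0.28 and fell by -1.41 ± 0.37 in BURP-12BaSq (adjusted p = 0.00515 and 0.0283). The let-7 hairpin genes of the list did not pass the filter on low counts.

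The genes whose pattern over the 24 tumors was most like that of a member were found by the root mean square difference of centred log2 CPM, a description without a test. Hmga2 was nearest to its antisense genes 9230105E05Rik (0.47) and 1700006J14Rik (0.49) and then to the keratin gene Krt18 (0.84). Igf2 was nearest to Igf2os (1.11), Dlk1 to Igsf11 (0.8), and Igfbp4 was the third for Dlk1 (0.97). Igf2bp3 was nearest to Erich6 (0.74), and Igf2bp1 had Igf2bp3 as its second (1.29). H19 and Lin28b had smallest differences of 2.05 (Limch1) and 1.51 (G530011O06Rik). These genes had the largest SDs of the members, 3.23 and 3.13. The difference grows with the spread of a gene, so its size does not compare closeness between members. Igf2bp2, Igf1r and Igf2r varied too little for this search, with SDs of 0.73, 0.49 and 0.86.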

How the data were processed

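Total RNA of 24 tumors was depleted of ribosomal RNA and sequenced paired-end on a stranded kit. Per the labels, reads were processed with CASAVA 1.8.2, aligned with STAR 2.6.0a to GRCm38 (GENCODE M16) and counted with RSEM 1.3.1. The authors deposited expected counts per gene, not normalized, of which 12.5% were not whole. These estimates were rounded before use. Symbols and positions came from GENCODE M21, which matched 99.8% of 53465 gene identifiers. Tests used edgeR 4.0.16 in R 4.3.3 (TMM, filterByExpr, glmQLFit, glmQLFTest) and, as an alternative, DESeq2 1.42.0. The fits were first tested on simulated data. P-values were adjusted by the Benjamini-Hochberg method over all genes tested. Log2 CPM used a prior count of 2. Peg10 is in the imprinted and the oncofetal list, and Grb10 is in the insulin-like growth factor and the imprinted list. Lin28a and Trim71 are in the let-7 and the oncofetal list, and Dcn is in the imprinted list and among the fibroblast markers. Library totals ran from 9295708 to 25370320 counts, and counting intervals are exact (95%) and cover counting error only.

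Lines and sex came from the labels and the study's methods. The members, the gene lists and the tests were chosen with earlier results of these data known. Named genes are the 10 members, at most the 3 called genes of largest change per list, direction and comparison, and the 3 genes most like each member with an SD above 1 on the log2 CPM scale. Lin28a, Grb10, Igf2os, Malsu1, Gm49394 and the antisense genes of Hmga2 were named outside this rule, after their values were seen. Alternatives were DESeq2 and its size factors, other filters, ribosomal RNA genes left out, 1 fit of all tumors, sums per line, each library left out in turn and, chosen after seeing the data, Igf2 summed with Gm49394 and other fits of the sexes without C102-M1. A gene of the oncofetal list is not reported here by name.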

Additional observations from a re-analysis of the deposited data

How the results depend on the processing

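Counts of members called depended on the fit in most comparisons. With at least 10 counts in every library, 4 were called over the 8 lines (5 were no longer tested), 0 in BURP-16SR against Ba/Sq, 3 in BURP-16SR against BURP-19NE and 0 in BURP-18BaSq. This filter called 9457 of all genes over the 8 lines (16409 as reported). It called 2828 in BURP-16SR against BURP-19NE (4147) and 958 in BURP-18BaSq (2065). DESeq2 called 3 in BURP-19NE, 4 in BURP-16SR against Ba/Sq and 2 in BURP-18BaSq. With all 24 tumors in 1 fit, 4 were called in BURP-19NE, 4 in BURP-16SR against Ba/Sq and 4 in BURP-18BaSq. In BURP-17BaSq and in BURP-24BaSq 1 was called (Lin28b in both). The 1 fit also called more of all genes, with 6152 in BURP-19NE (5108 as reported), 5760 in BURP-16SR (4029) and 3413 in BURP-18BaSq (2065). It called 1466 in BURP-17BaSq (220) and 1681 in BURP-24BaSq (339). With counts summed per line, 0 were called in BURP-16SR, where 841 of all genes were. The sexes had 1 (H19) with DESeq2, with each of 18 tumors as a sample and with DESeq2 over 18 tumors. DESeq2 over 18 tumors called 768 of all genes, and fits over tumors take tumors of 1 donor as replicates of a sex. Apart from genes no longer tested, the cause was not tested.

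Leaving out 1 library gave counts of 1 to 2 in BURP-19NE, 1 to 3 in BURP-16SR against Ba/Sq and 4 to 6 in BURP-16SR against BURP-19NE. Over the 8 lines the count was 9 throughout. In a Ba/Sq line against the others only its own tumors and C102-M1 were left out, and the effect of the remaining libraries was not examined. That gave 1 to 3 in BURP-12BaSq, 1 to 2 in BURP-18BaSq and 0 throughout in BURP-17BaSq, BURP-24BaSq and BURP-25BaSq. Between the sexes a whole line or C102-M1 was left out, which gave 0 to 1. The 1 (H19) came with DESeq2 over tumors without C102-M1, a fit chosen after seeing the data. No fold change listed for a member turned direction: of 200 values under other alternatives 171 kept their side of the threshold, 8 lost the call and 21 gained it. Of 40 line levels under other scalings 3 moved by more than 1 SD. Calls over all genes, with a left-out library among the alternatives, ran from 1087 to 6152 in BURP-19NE (5108 as reported), 841 to 5760 in BURP-16SR (4029), 2828 to 5545 in BURP-16SR against BURP-19NE (4147), 208 to 2370 in BURP-12BaSq (941), 54 to 1466 in BURP-17BaSq (220), 703 to 3413 in BURP-18BaSq (2065), 77 to 1681 in BURP-24BaSq (339), 9 to 647 in BURP-25BaSq (56) and 0 to 768 between the sexes (0). No paired analysis was possible because the labels give no replicate numbers, and the codes that recur in tumor names across lines are not said to tie those tumors together. Depth limits Igf2bp1, Dlk1 and Lin28b where levels are near 3 counts, above all in C102-M30.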

Other observations

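Some other imprinted genes, named for their spread within lines after their values were seen, also differed between tumors of 1 line. In BURP-25BaSq, Peg10 stood at 546 CPM in the highest tumor, at 289.6 CPM in the next and at 0.619 CPM in C102-M1, and in the other Ba/Sq lines it did not exceed 3.29 CPM. Grb10, which encodes an adaptor that restrains insulin and IGF signaling, stood at 53.9 to 144 CPM in BURP-21BaSq. In BURP-25BaSq it stood at 73.2 CPM in C102-M1 and at 8.06 and 2.85 CPM in the other tumors. In both genes C102-M1 was thus the tumor apart from its line mates. Slc38a4, an imprinted amino acid transporter gene, was high in BURP-24BaSq, at 2.54 to 115 CPM, and did not exceed 0.884 CPM in any tumor of another line.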
